A study of Homo sapiens with 16 samples.

Results

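The response of H460 cells to a combination of 2 small molecules, MYCi975 and TMP195, was measured by RNA sequencing. H460 is a human cell line from a large cell lung carcinoma, a form of non-small cell lung cancer. All libraries labelled H460 were used, 2 from cells given vehicle (DMSO) and 2 from cells given 5 µM MYCi975 with 25 µM TMP195, which makes 4 of the 16 libraries in the table. The other 12 came from H1703, HCC827 and H441, 3 further lines of the same cancer type with 2 vehicle and 2 combination libraries each, and served as context. The study describes H460 and H1703 as responsive to the drugs and HCC827 and H441 as non-responsive. Every line was kept in RPMI medium with 10% fetal bovine serum, dosed 1 day after plating and collected 48 h later, so that by the labels each combination group differed from its own vehicle group in the drugs alone. Cells given either drug singly were not analysed here, so the shares of MYCi975 and TMP195 in any change cannot be told apart. Whether the 2 libraries of a group stem from separate cultures is not stated, so p-values measure only the spread between these libraries, which may be technical.

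MYC is a transcription factor that pairs with MAX and drives genes for ribosomes, nucleotides and cell division. MYCi975 is described as a MYC inhibitor that disturbs this pairing. TMP195 blocks the deacetylases of class IIa (HDAC9, HDAC7, HDAC5 and HDAC4), which act mainly as docking proteins that hold repressor complexes on MEF2 transcription factors. Cells short of amino acids or burdened with unfolded proteins switch on the integrated stress response, in which the transcription factor ATF4 raises genes for amino acid supply, tRNA charging and stress signalling, many of them through a paired C/EBP and ATF binding element. Genes for mitosis are held down outside the late cell cycle by a complex that binds the cell cycle homology region, or CHR, near their start sites.

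The upstream windows of 3 genes that rose and 3 that fell are shown for 2 reasons. These groups had among the largest median changes of the lists examined, and each window holds letters of the element named above. Each is the 250 bases before the start site in RefSeq (GRCh38.p14), 5′ to 3′ on the gene's strand. Capitals mark TGATGNAA or its reverse complement in CHAC1, ATF3 and ASNS. In the other windows they mark the CHR letters TTTGAA or their reverse complement. Counted from the start site, these begin at -26 in GTSE1, -29 in PLK1 and -247 in SPC25. The SPC25 match thus lies at the far end of its window. The ATF3 window lies at the upstream end of the annotated gene (212565334 to 212620777), and other start sites of ATF3 were not examined.
CHAC1, chr15:40953221-40953470, plus strand: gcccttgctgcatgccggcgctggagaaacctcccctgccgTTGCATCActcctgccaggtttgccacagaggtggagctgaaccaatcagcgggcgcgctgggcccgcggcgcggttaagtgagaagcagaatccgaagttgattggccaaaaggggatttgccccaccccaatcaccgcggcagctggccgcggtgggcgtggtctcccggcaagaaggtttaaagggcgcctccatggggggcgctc
ATF3, chr1:212565157-212565406, plus strand: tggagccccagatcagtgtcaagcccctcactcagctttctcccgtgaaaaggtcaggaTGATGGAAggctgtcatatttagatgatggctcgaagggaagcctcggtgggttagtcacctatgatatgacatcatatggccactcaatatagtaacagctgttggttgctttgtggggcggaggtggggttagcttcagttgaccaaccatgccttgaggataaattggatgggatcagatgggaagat
ASNS, chr7:97872409-97872658, minus strand: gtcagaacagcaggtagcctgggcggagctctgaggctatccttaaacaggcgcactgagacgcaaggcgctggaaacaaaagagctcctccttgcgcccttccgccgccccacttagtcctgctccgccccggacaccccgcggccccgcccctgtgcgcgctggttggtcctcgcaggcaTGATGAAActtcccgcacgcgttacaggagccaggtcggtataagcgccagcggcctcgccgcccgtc
GTSE1, chr22:46296620-46296869, plus strand: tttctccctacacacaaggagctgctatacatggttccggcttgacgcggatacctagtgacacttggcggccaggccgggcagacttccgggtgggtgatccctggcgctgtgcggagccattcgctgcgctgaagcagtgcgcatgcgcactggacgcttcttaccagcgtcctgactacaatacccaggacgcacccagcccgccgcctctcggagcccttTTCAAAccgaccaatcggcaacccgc
PLK1, chr16:23678639-23678888, plus strand: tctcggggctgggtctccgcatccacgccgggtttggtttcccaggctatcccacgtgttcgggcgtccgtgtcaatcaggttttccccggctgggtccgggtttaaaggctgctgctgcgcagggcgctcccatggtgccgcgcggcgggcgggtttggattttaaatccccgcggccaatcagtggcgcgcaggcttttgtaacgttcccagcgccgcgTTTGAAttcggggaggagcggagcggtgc
SPC25, chr2:168890431-168890680, minus strand: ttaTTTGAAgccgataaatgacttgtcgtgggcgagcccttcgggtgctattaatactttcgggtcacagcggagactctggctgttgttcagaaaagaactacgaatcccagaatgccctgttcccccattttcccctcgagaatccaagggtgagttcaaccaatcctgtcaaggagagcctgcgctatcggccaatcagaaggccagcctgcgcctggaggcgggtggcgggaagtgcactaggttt
CHAC1 encodes an enzyme that breaks down glutathione, ATF3 a stress-induced transcription factor and ASNS asparagine synthetase. GTSE1 and PLK1 encode a mitotic regulator and a mitotic kinase, and SPC25 a subunit of the kinetochore. In the window from 250 bases before to 50 bases after the start site, read on both strands, CHR letters, here TTTGAA or the variant form TTCGAA, were present in 31 of the 43 G2/M genes with a RefSeq window (72.1%) and in 11.9% of the 13260 windows of all genes tested. The C/EBP-ATF letters were present in 6 of 16 windows of cytosolic aminoacyl-tRNA synthetases (37.5%) and in 3 of 25 windows of the integrated stress response list (12%), against 1.93% of all genes tested. The E2F letters TTTCCCGC or TTTGGCGC were present in 20 of 43 windows of the G1/S and DNA replication list (46.5%), against 3.39%. A match describes the letters in the window and does not show that a factor binds there.

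The H460 libraries held 10444340 to 13461223 reads assigned to genes, within the range of all 16 libraries. The 2 vehicle libraries correlated at r = 0.978 over genes and the 2 combination libraries at 0.974. Epithelial keratins were expressed (KRT8 at 17082 to 20062 normalised reads, that is, reads divided by the library's size factor), and CDKN2A, absent at the DNA level from many lung cancer lines, had no read in any H460 library. SFTPA1, SFTPA2 and TP63, markers of alveolar type II and of squamous cells, also had no read. Of 18 markers of blood, endothelial and fibroblast cells, 10 were in the table, and their summed level was 346 and 288 normalised reads with vehicle and 222 and 216 with the combination, with PECAM1 at 0 throughout. Reads from the mitochondrial genome made up 14.3 to 15.7% with vehicle and 17.4 to 18.2% with the combination, and those from the nuclear RNAs MALAT1 and NEAT1 0.173 to 0.217% and 1.31 to 1.47%.

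**Figure D1:**
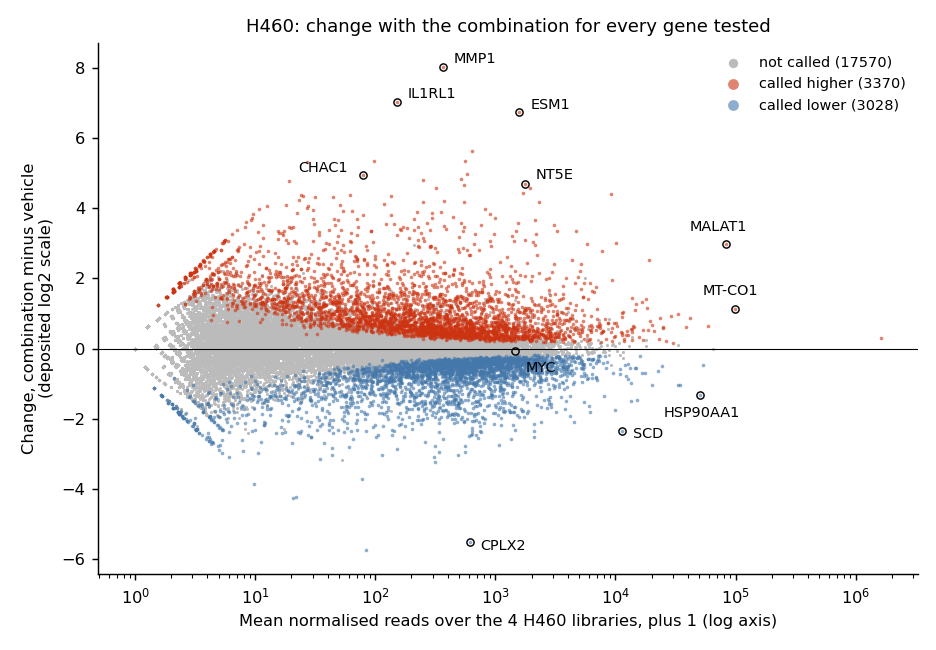
Change of each of the 23968 genes tested in H460 (y axis, the log2 change with the combination, on the scale deposited) against its mean level over the 4 H460 libraries (x axis, normalised reads plus 1, log axis); each point is 1 gene. The 3370 genes called higher and 3028 called lower spread over the whole range of levels, the largest rises belong to MMP1, IL1RL1 and ESM1, and MYC lies at about 0.

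The combination changed genes across the whole range of expression. A gene was called when its Benjamini-Hochberg adjusted p from limma was at most 0.05. Of 23968 genes, 6398 were called (26.7%), with 3370 higher (14.1%) and 3028 lower (12.6%), and among them 1555 rose and 946 fell by at least 1 on the log2 scale. In 6384 of the 6398, the vehicle and combination libraries did not overlap. With 2 against 2 libraries a call itself favours groups that do not overlap, so this count is no separate support for the calls. The called genes were 52.7% higher as deposited, but 32.6% with each library centred on its median, which shifts every H460 change by -0.19, and 46.9% after quantile normalisation. Of 5334 long non-coding genes 7.97% were called higher and 4.57% lower, against 18.9% and 18.4% of 14656 protein-coding genes. An exact permutation test of a single gene with 2 against 2 libraries cannot go below p = 0.333, so each call rests on the spread pooled over the 8 groups of the 4 lines. A lower level can come from less RNA per cell or from fewer cells that express the gene, which cannot be told apart in bulk cultures.

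Of the drugs' own targets, MYC and MAX were not called at the RNA level, and of the 4 class IIa deacetylases 2 rose and 1 fell. MYC stood at 1548 and 1410 normalised reads with vehicle and at 1366 and 1470 with the combination, so the groups overlapped. Its change was -0.06 ± 0.11 (SE) on the log2 scale (limma, adjusted p = 0.774). The change of MYC differed from the mean of the other 3 lines by -0.79 (adjusted p = 0.000202), with changes of 1.34 in H1703, 0.60 in HCC827 and 0.26 in H441. Its partner MAX was at 803 and 708 normalised reads with vehicle and 740 and 780 with the combination. Of 12 members of the MYC network, 3 rose and 3 fell. Among all genes tested 14.1% were higher and 12.6% lower, and among protein-coding genes 18.9% and 18.4%. MXD1, which competes with MYC for MAX, rose from 30.3 and 19.7 to 60.2 and 68.4 normalised reads, and MXD3 fell by 0.59 on the log2 scale. Fitted on the H460 libraries alone, 1 member was called in each direction.

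Among the class IIa deacetylases HDAC5 rose from 92.9 and 89.7 to 307 and 352 normalised reads, 3.61-fold (log2 change 1.82 ± 0.12, limma adjusted p = 3.59e-10). That rise was larger than the mean of the other lines by 1.12 on the log2 scale (adjusted p = 5.88e-06). HDAC4 fell from 997 and 944 to 694 and 709, a change of -0.47 ± 0.12 (adjusted p = 0.0062); without vehicle library 1 the adjusted p was 0.0586. HDAC7 was at 624 and 665 with vehicle and 665 and 770 with the combination (change 0.15, adjusted p = 0.438), and its sign turned with median centring. HDAC9 had 1 read in the vehicle libraries and 12 in the combination libraries, a ratio of 14.8 after scaling by library size (95% counting interval 2.19 to 633), and its call was lost in the fit on H460 alone (adjusted p = 0.0846). Of 11 MEF2 factors and genes read as MEF2 activity, 7 rose and none fell, with a median change of 0.87 against 0.05 over all genes tested. The nuclear receptor gene NR4A1 led them, from 276 and 349 to 3302 and 4666 normalised reads, and exceeded the mean change of the other lines by 2.50 (adjusted p = 9.17e-06). KLF4, which encodes a zinc finger factor, rose 3.08-fold.

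**Figure D2:**
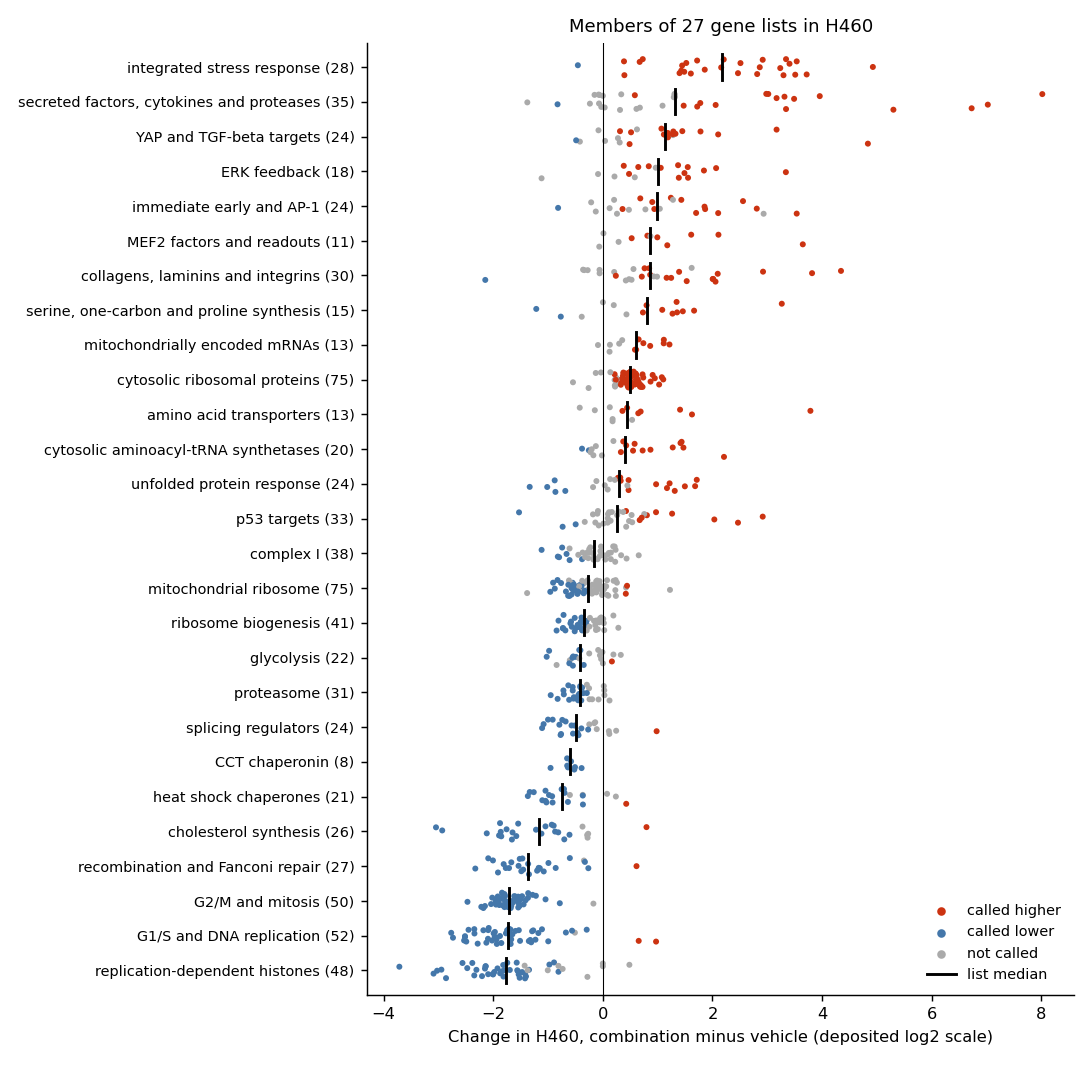
Change in H460 (x axis, combination minus vehicle, deposited log2 scale) of each tested member of 27 gene lists (y axis, number tested in brackets); colour shows the call and black bars the list medians. Stress response, secreted and adhesion genes lie mostly right of 0, and the replication, mitosis, histone, repair and sterol lists left of it.

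Genes of the integrated stress response rose almost without exception. Of 28 tested members 27 rose and 1 fell, with a median change of 2.18, and 24 to 27 rose under each alternative. CHAC1 went from 0.978 and 5.51 normalised reads to 180 and 125 (log2 change 4.93 ± 0.40, limma adjusted p = 1.00e-08). ATF3 went from 21.5 and 18.9 to 290 and 238, and ASNS, whose vehicle libraries differed more, from 8.8 and 31.5 to 83.6 and 93.5. In each of these genes both combination libraries lay above both vehicle libraries, as the plot of genes by library shows. The rule that named CHAC1 and ATF3 required groups without overlap, so their separation is no separate support. ATF4 itself rose by 0.73 ± 0.08, from 2771 and 2872 to 4593 and 4756, while DDIT3, which encodes the stress factor CHOP, rose 4.52-fold. GDF15, a secreted stress hormone, rose 9.13-fold from 71.4 and 23.6 to 478 and 389. NUPR1 had no read with vehicle and 32 with the combination, at least 13.2-fold higher when the vehicle group is set to 3 reads in all. The member that fell was SQSTM1, the autophagy receptor p62, from 6451 and 5869 to 4692 and 4286; its change in the other lines was 0.61 to 0.72, and the difference was -1.11 (adjusted p = 5.31e-08).

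The list's median change was 1.48 in HCC827, 0.81 in H1703 and 0.65 in H441. In 15 of the 28 genes the H460 response was larger than the mean of the other lines, and in 2 it was smaller, where 16.3% of all genes tested differed in either direction. The difference was 3.57 for CHAC1 (adjusted p = 1.54e-05) and 2.13 for ATF3 (2.3e-07). For DDIT3, TRIB3, ATF4 and ASNS it was 0.24, 0.12, 0.01 and 0.26 and did not pass the test.

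Genes that supply amino acids and charge tRNAs followed in part. Of 20 cytosolic aminoacyl-tRNA synthetases, 12 rose and 2 fell; with median centring the numbers were 10 and 6, and on H460 alone 11 and 0. WARS1, the tryptophan enzyme, rose from 1859 and 1740 to 8323 and 8344 normalised reads, with changes of -0.08 in H1703, 1.26 in HCC827 and 0.05 in H441 (difference from the other lines 1.80, limma adjusted p = 3.55e-09). GARS1 rose 2.77-fold and SARS1 2.71-fold, and FARSA, a phenylalanine enzyme subunit, fell by 0.38 on the log2 scale. Of 15 genes for serine, one-carbon and proline synthesis, 9 rose and 2 fell. ALDH1L2, a mitochondrial folate enzyme, rose 9.61-fold, from 357 and 470 to 3687 and 4256. PSAT1 rose 3.17-fold and PHGDH 2.55-fold, both serine synthesis enzymes, and MTHFD2, a mitochondrial folate enzyme, 2.13-fold. The 2 that fell, SHMT1 (1.22 on the log2 scale) and MTHFD1 (0.77), are the cytosolic folate enzymes of the list. The change of PSAT1 on the log2 scale was 1.66 in H460, 1.72 in HCC827, 0.82 in H441 and -0.83 in H1703. That of PHGDH was 1.35, 1.76, 0.57 and -0.79 in the same order. Among 13 amino acid transporters 7 rose and none fell, but 2 fell with median centring and 1 after quantile normalisation or without vehicle library 1. The glycine transporter SLC6A9 rose from 15.7 and 3.93 to 145 and 149, whereas the cystine transporter SLC7A11 was at 5953 and 5625 with vehicle and 6607 and 6045 with the combination.

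**Figure D3:**
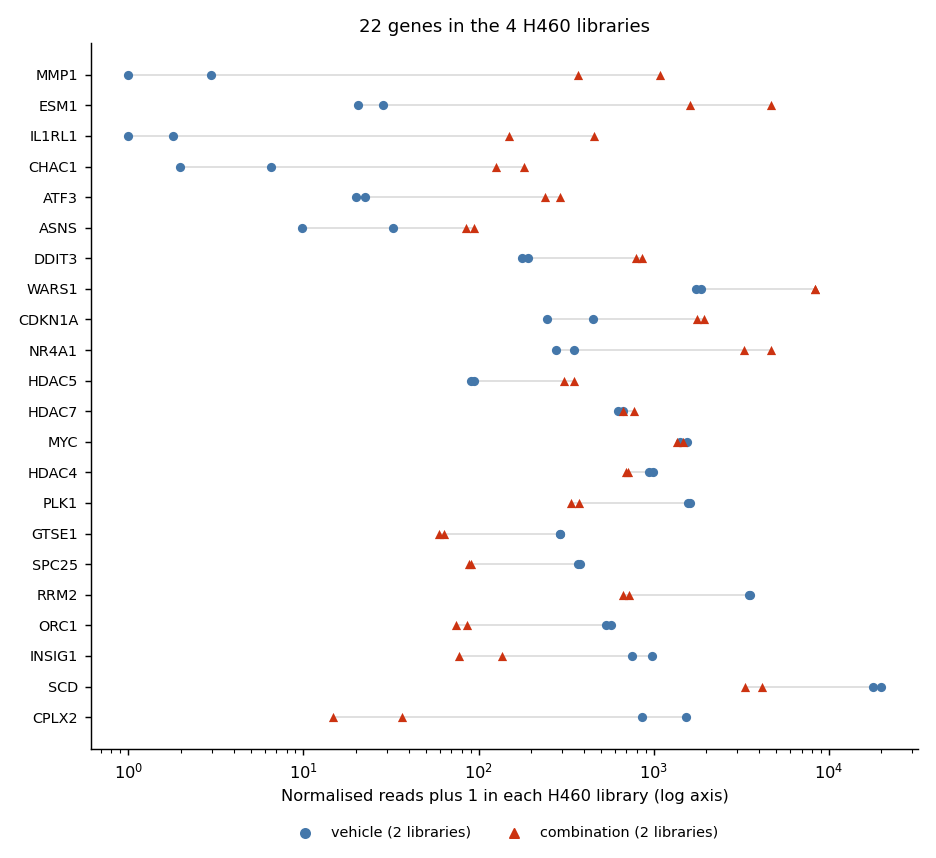
Normalised reads plus 1 (x axis, log axis) of 22 genes (y axis) in each of the 4 H460 libraries; circles are vehicle, triangles the combination, and grey lines join the lowest and highest library. The groups are apart for the genes shown, except that they overlap for MYC and touch for HDAC7. Separation was part of the rule that named some of these genes, so it is no separate support.

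Genes of the unfolded protein response moved both ways. Of 24 members 12 rose and 5 fell, and the numbers were 8 and 7 with median centring. Among those that rose were HERPUD1, which helps dispose of misfolded proteins (2.85-fold), the transcription factor XBP1 (3.23-fold, from 337 and 392 to 1114 and 1237) and the cochaperone DNAJB9 (3.37-fold). The folding helpers SDF2L1 and CALR fell, SDF2L1 from 178 and 163 to 70.4 and 61.6 and CALR from 16447 and 16556 to 9208 and 8903. HSPA5, the main chaperone of this compartment, rose 1.21-fold, against log2 changes of 2.02 in H1703, 0.27 in HCC827 and 0.09 in H441 (difference from the other lines -0.52, limma adjusted p = 2.79e-05).

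Cytosolic chaperones fell. Of 21 heat shock chaperones 16 fell and 1 rose, and all 8 subunits of the CCT chaperonin, which folds actin and tubulin, fell (7 on H460 alone). HSP90AA1, the inducible form of HSP90, went from 74323 and 70641 to 28014 and 29470 normalised reads (log2 change -1.33 ± 0.06, limma adjusted p = 5.2e-12). HSPA8 fell to 12621 and 13440 from 26783 and 27037, and HSPE1, a mitochondrial cochaperone, by 1.37 on the log2 scale. HSPB1 was the member that rose, by 0.43, a call lost under both other scalings and when vehicle library 1, vehicle library 2 or combination library 1 was left out. The stress-inducible HSPA1A was near 0, at 1.02 to 3.91 normalised reads. Proteasome subunits also fell in 22 of 31 cases and rose in none, with a median change of -0.41.

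Genes of DNA replication and mitosis fell together. In the G1/S and DNA replication list 49 of 52 members fell and 2 rose, with a median change of -1.74, and in the G2/M list 49 of 50 fell and none rose, with a median of -1.71. Both sets fell in 46 to 50 members under each alternative. The replication licensing gene ORC1 went from 571 and 533 normalised reads to 73.4 and 84.4, a 7.0-fold fall (log2 change -2.77 ± 0.17, limma adjusted p = 2.5e-10). RRM2, a ribonucleotide reductase subunit, went from 3511 and 3552 to 670 and 718. In both of these genes replicate libraries lay close together and the groups far apart. ORC1 was named by a rule that required groups without overlap. PLK1, whose upstream window is printed above, went from 1610 and 1567 to 335 and 376, GTSE1 from 292 and 289 to 58.1 and 62.7, and SPC25 from 378 and 370 to 87.7 and 90.1. KIF20A, a kinesin of late mitosis, showed the largest fall of the G2/M list, 2.47 on the log2 scale. CDC25B was the G2/M member that was not called, at 1557 and 1504 against 1372 and 1343.

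The 2 replication-list members that rose drive entry into the cycle: CCND1, cyclin D1, went from 2534 and 2690 to 5058 and 5183, and CDK6 rose 1.59-fold. With median centring, on H460 alone, without vehicle library 1 or without combination library 2, 1 member of the list rose instead of 2. CDKN1A, the CDK inhibitor p21, rose from 448 and 246 to 1762 and 1938, 5.33-fold (adjusted p = 1.03e-08). CDKN2C, another inhibitor, fell from 193 and 187 to 38.7 and 39.9.

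Replication-dependent histone genes fell in 39 of 48 members and rose in none. H2BC14 went from 161 and 130 normalised reads to 8.16 and 9.12, H2AC4 from 587 and 518 to 72.4 and 53.6, and H3C12 from 303 and 227 to 39.8 and 28.5. These clustered genes are near-identical in coding sequence, so reads can be split among them. Among 27 genes of recombination and Fanconi repair 25 fell and 1 rose. The fork protein CLSPN fell 5.04-fold. The nuclease EXO1 went from 7288 and 7347 to 1598 and 1840, a 4.26-fold fall. ATM, the DNA damage kinase, was the exception, rising 1.53-fold.

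Compared with the other lines, the replication list fell by a median of 1.66 on the log2 scale in H1703, 0.47 in HCC827 and 0.14 in H441, and the G2/M list by 1.84, 0.81 and 0.15. The fall was deeper in H460 than the mean of the other lines for 42 of 52 and 44 of 50 genes, where 16.3% of all genes differed in either direction. The contrast with that mean does not separate H460 from H1703, whose own medians were close to those of H460.

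**Figure D4:**
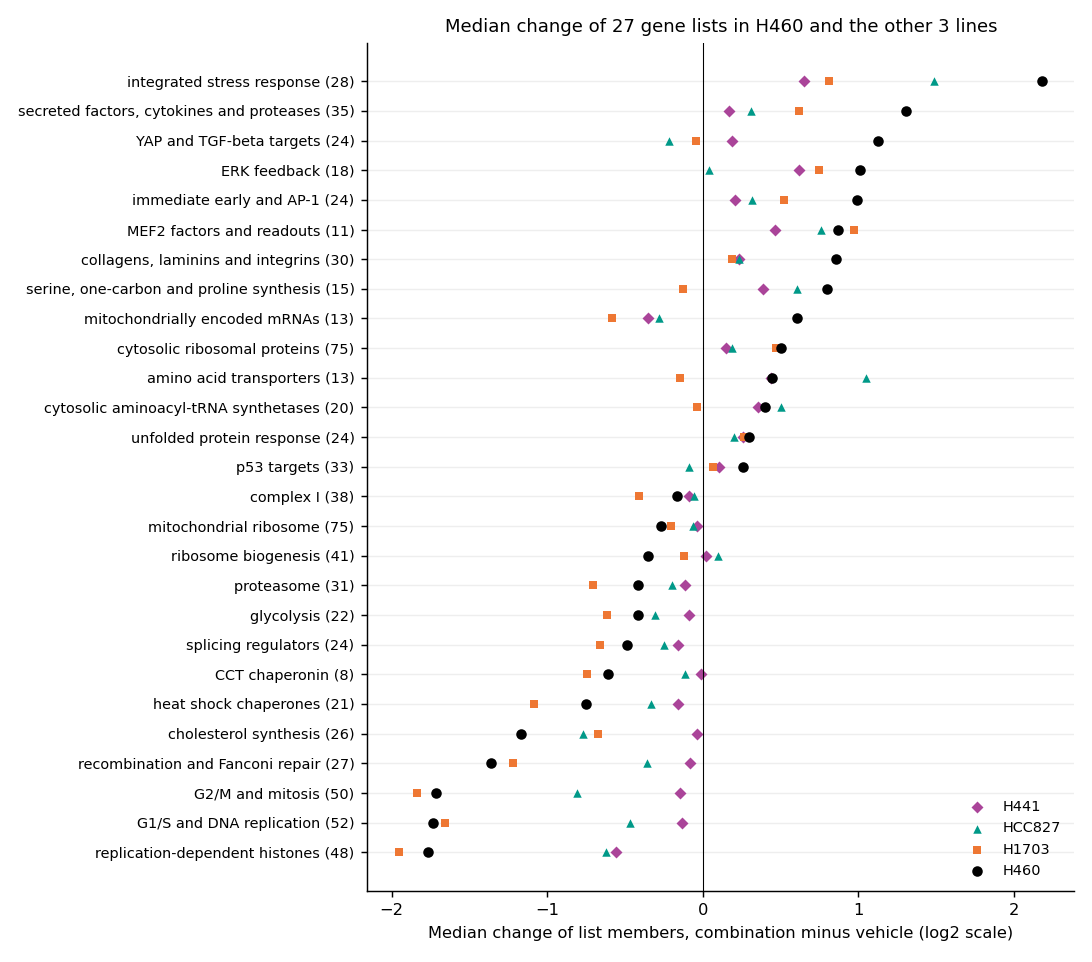
Median change of the tested members of 27 gene lists (x axis, combination minus vehicle, log2 scale) in each of the 4 lines (symbols); the number tested is in brackets. H460 and H1703 lie near each other in the replication and mitosis lists, and H460 lies apart from all 3 lines in the mitochondrially encoded mRNAs and the YAP and TGF-beta targets.

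Among p53 targets and apoptosis regulators more genes rose than fell, and the rises included genes of opposite function. Of 33 p53 targets 9 rose, 3 fell (1 on H460 alone) and 21 did not pass the test. The share called in this list was 36.4%, against 26.7% of all genes tested. Among protein-coding genes 18.9% were called higher and 18.4% lower. CDKN1A, SESN2, a stress-induced inhibitor of growth signalling, and GADD45A, a growth arrest gene, rose 4.22-fold or more, and CDKN1A and SESN2 are also members of the stress response list. MDM2, the p53 ligase, rose 1.33-fold, and PPM1D, a phosphatase, fell by 0.50 on the log2 scale. Of 25 apoptosis regulators 14 rose and 2 fell (1 without vehicle library 1 or combination library 2); 9 rose with median centring, on H460 alone, or without either vehicle library. MCL1, a survival protein, went from 2275 and 2826 to 6586 and 12800 normalised reads and CFLAR, a brake on caspase 8, from 336 and 364 to 1296 and 1615. PMAIP1, the killer protein NOXA, went from 286 and 249 to 796 and 714. CFLAR changed by -0.43 to 0.07 in the other lines (difference 2.16, limma adjusted p = 5.72e-11).

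Sterol and fatty acid synthesis genes fell. Of 26 genes of cholesterol synthesis and its control 21 fell and 1 rose, with a median change of -1.17. INSIG1, which retains the sterol-regulated factor SREBP in its inactive place, went from 756 and 974 normalised reads to 76.5 and 135 (log2 change -3.04 ± 0.21, limma adjusted p = 1.77e-08). HMGCS1, an early enzyme of the pathway, fell 3.64-fold. The member that rose, TM7SF2, was at 17.6 and 14.9 with vehicle and at 30.6 and 29.6 with the combination; the call was lost after quantile normalisation, with voom, on H460 alone and without vehicle library 2. Among 18 genes of fatty acid synthesis and desaturation 10 fell and 4 rose. The desaturases SCD and FADS2 fell most, SCD from 18006 and 19871 to 3311 and 4155 and FADS2 from 1075 and 1371 to 161 and 267. FADS2 changed by -0.34, -0.33 and 0.37 in the other lines, a difference of -2.43 (adjusted p = 1.25e-07). ACSS2, which makes acetyl-CoA from acetate, rose 2.24-fold. ABCA1, a sterol exporter, fell in H460 by 1.23 and had changes of -0.06 in H441, -1.81 in HCC827 and 2.71 in H1703. In H460 its combination libraries were 32.6 and 87.8, against 137 and 123, and the call was lost on H460 alone.

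mRNAs encoded by mitochondrial DNA were higher while part of the nuclear genes for the same organelle were lower. Of the 13 mitochondrial mRNAs 8 rose and none fell, with a median change of 0.61. MT-CO1 went from 65676 and 59293 normalised reads to 133360 and 136610 and MT-ND4 from 10754 and 7852 to 20768 and 18964, whereas MT-CO3 was at 7687 and 5366 with vehicle and 6774 and 5381 with the combination. The groups were apart in MT-CO1 and MT-ND4 and overlapped in MT-CO3. The number that rose was 5 after quantile normalisation, which also ended the call of MT-CO1 (change 0.314, limma adjusted p = 0.169), 4 on H460 alone, and 5 without vehicle library 2 or without combination library 1. The median of this list was -0.58 in H1703, -0.28 in HCC827 and -0.35 in H441, and for 12 of 13 mRNAs the change in H460 lay above the mean of the other lines, by 0.98 in the median. The share of all reads from the mitochondrial genome, given above, moved with this list, and its part in the result was not tested.

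**Figure D5:**
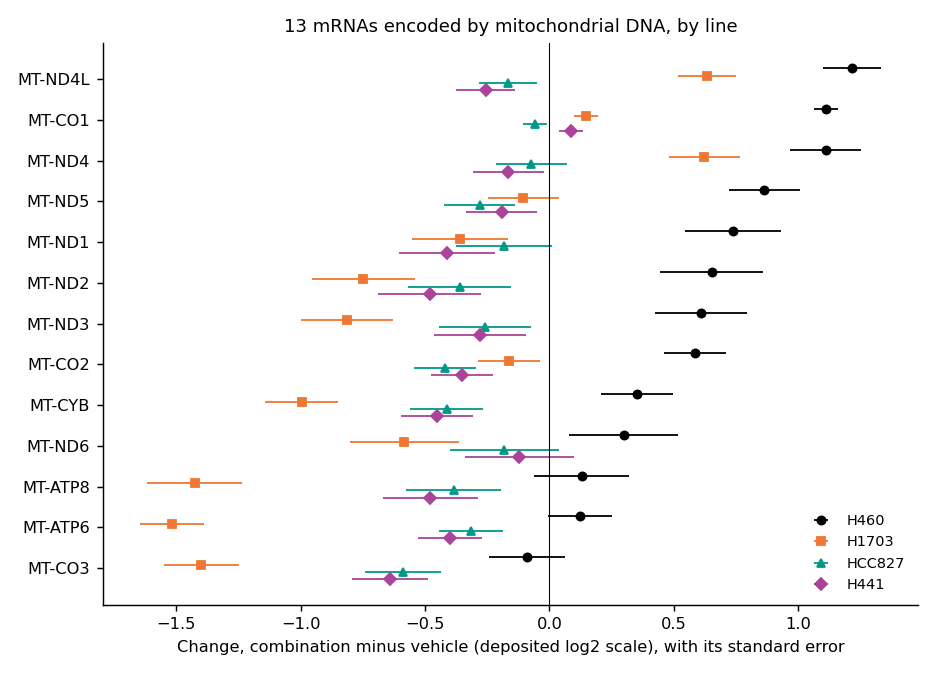
Change of the 13 mRNAs encoded by mitochondrial DNA (x axis, combination minus vehicle, deposited log2 scale; bars are standard errors of the fit) in each line, with 2 vehicle and 2 combination libraries per line. H460 has the highest value for every mRNA, from -0.09 for MT-CO3 to 1.22 for MT-ND4L.

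Of 38 nuclear complex I genes none rose and 7 fell (15 with median centring, 3 on H460 alone). These 7 are 18.4% of the list, the same share as the 18.4% of protein-coding genes called lower. Among all genes tested 12.6% were lower. Of 40 genes of complexes II to V none rose and 14 fell (25 with median centring, 6 on H460 alone). Of 75 mitochondrial ribosome genes 27 fell and 2 rose. On H460 alone 12 fell and 1 rose, none rose with median centring or without combination library 2, and 1 rose without either vehicle library. TFAM, which packages mitochondrial DNA, went from 1550 and 1407 to 732 and 750 normalised reads, a 2.00-fold fall (limma adjusted p = 4.02e-08), and TFB2M, a mitochondrial transcription factor, fell by 0.46 on the log2 scale.

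Genes for cytosolic ribosomal proteins rose in 64 of 75 cases and fell in none, with a median change of 0.50. With median centring 44 rose and 3 fell, and after quantile normalisation 60 rose and 1 fell. RPL12 went from 3398 and 3294 to 6863 and 7524 normalised reads, and RPS12 from 1829 and 1727 to 3536 and 3976. Genes that build ribosomes in the nucleolus, a classical MYC programme, moved the other way: none of 41 rose and 23 fell, with a median of -0.35. The median was -0.12 in H1703, where 18 fell and 5 rose, 0.10 in HCC827 and 0.02 in H441. CACGTG, the letters of the E-box that MYC binds, was present in 14 of 33 of their promoter windows (42.4%), against 9.46% of all genes tested. It was also in 3 of 8 windows (37.5%) of the serine, one-carbon and proline list, where 9 genes rose and 2 fell. In cholesterol synthesis, where 21 fell and 1 rose, it was in 4 of 20 (20%). The part of MYC in these changes was not tested. Of 24 splicing regulators 16 fell and 1 rose, led by SRSF1, which fell from 1569 and 1478 to 722 and 688. The nuclear RNA MALAT1 rose from 17199 and 20347 to 150140 and 143540 and NEAT1 from 1417 and 2632 to 13841 and 12787. Both exceeded the other lines, by 1.91 and 1.96 (adjusted p = 2.09e-05 and 0.00105).

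The 3 largest rises were in MMP1, IL1RL1 and ESM1. MMP1, an interstitial collagenase, went from 1.96 and 0 normalised reads to 368 and 1084, which is 1312 reads against 2 and a ratio of 810 after scaling by library size (95% counting interval 224 to 6695). IL1RL1, the receptor for interleukin 33, had 1 read with vehicle and 543 with the combination, a ratio of 670 (interval 120 to 26527). ESM1, a secreted proteoglycan, went from 19.6 and 27.5 to 1619 and 4676. In all 3 genes combination library 2 was about 3 times as high as combination library 1, and both were far above vehicle. Over the 15 largest rises combination library 2 was the higher in 13, by up to 3.07-fold, and over all 3370 genes called higher it was in 64.7%. Other genes among the 15 were MARCHF4 (a ubiquitin ligase, 55.8-fold), UNC13A (41.3-fold), THBD (thrombomodulin, 33.5-fold), NT5E (the CD73 ectonucleotidase, from 126 and 130 to 2950 and 3817) and PAPPA2 (a metalloprotease, 24.2-fold). WTAPP1 overlaps MMP1 and MMP10, GNGT1 overlaps TFPI2, and an antisense gene lies on MARCHF4. Their reads cannot be told apart because the strand setting of the counting is not given.

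Of 35 tested secreted factors, cytokines and proteases 16 rose and 1 fell, with 18 not called. IL24 had no read with vehicle and 97 with the combination, at least 39.9-fold higher. INHBA, the activin A subunit, went from 91 and 98.3 normalised reads to 1225 and 1862 and the chemokine CXCL8 from 1094 and 1349 to 6432 and 14383. INHBA changed by -0.39, 0.03 and 1.06 in the other lines (difference 3.72, limma adjusted p = 1.61e-07). The inflammatory genes IL6, CCL2 and ICAM1 were among those not called, at changes of 0.03, -0.08 and -0.03, and NFKBIA, the inhibitor of NF-κB, fell by 0.83. CD274, the immune checkpoint ligand PD-L1, went from 102 and 137 to 784 and 1704.

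Growth factor signalling genes rose in part. Of 14 ligands and receptors of the EGFR family and related kinases 8 rose and none fell (4 rose on H460 alone). The ligand HBEGF went from 34.2 and 59.8 normalised reads to 167 and 244. EREG went from 0 and 5.51 to 28.6 and 82.1, AREG from 0 and 5.51 to 17.3 and 23.9 and TGFA from 4.89 and 0.787 to 21.4 and 30.8, all further EGFR ligands at low levels. Of 18 feedback genes of the ERK pathway 13 rose and none fell (7 rose on H460 alone). ERRFI1, an inhibitor of EGFR, rose 10.3-fold and the phosphatase gene DUSP1 4.34-fold, while DUSP6 stood at 191 and 283 with vehicle and 246 and 846 with the combination (limma adjusted p = 0.177). Of 24 immediate early and AP-1 genes 13 rose and 1 fell (3 fell with median centring, none on H460 alone, and 2 without combination library 1). EGR1 was at 44 and 9.44 with vehicle and at 749 and 41.1 with the combination, so its groups overlapped.

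Targets of YAP and TGF-beta rose in 16 of 24 cases and fell in 1 (2 under either other scaling and without vehicle library 2), with a median change of 1.13 against -0.05 in H1703, -0.22 in HCC827 and 0.19 in H441 (10 rose on H460 alone). ANKRD1, a YAP target, went from 23.5 and 36.2 normalised reads to 573 and 1442. CCN1 went from 707 and 440 to 1536 and 3773, and CCN2 from 1117 and 1161 to 1401 and 5467, so that combination library 2 sets much of both values (CCN2 adjusted p = 0.0887; CCN1 0.00209, and 0.0572 on H460 alone). In 15 of the 24 genes the response exceeded the mean of the other lines and in 1 it fell short. Of 30 collagens, laminins and integrins 16 rose and 1 fell, and 16 exceeded the mean of the other lines. ITGA3, the laminin-binding integrin chain, went from 111 and 123 to 1655 and 1702 (log2 change 3.82 ± 0.08, limma adjusted p = 1.65e-16), a difference of 2.92 from the other lines. Its ligand chain LAMA3 rose 4.11-fold and ITGB4, a further laminin receptor chain, 7.86-fold. The member that fell was COL1A1, from 60.6 and 57.4 to 11.2 and 11.4. COL1A1 is also a fibroblast marker and is itself part of the summed marker level given above. In the same sum the mean normalised reads of COL3A1, ACTA2 and PDGFRB went from 85.8, 112 and 38.4 to 66.1, 99.7 and 31.1. LUM went from 0 to 0.57. The part of other cells in the fall of COL1A1 was not tested.

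Targets of NRF2, the antioxidant factor held down by KEAP1, were divided, with 5 of 34 higher and 12 lower. The number lower was 8 to 17 over the alternatives that left out no single library. Among all genes tested 14.1% were higher and 12.6% lower, and among protein-coding genes 18.9% and 18.4%. TXNRD1, thioredoxin reductase, rose from 15700 and 15302 normalised reads to 22666 and 27264 and NQO1, a quinone reductase, 1.45-fold, while GCLC, which starts glutathione synthesis, fell from 1070 and 964 to 427 and 445. AKR1B10, an aldo-keto reductase, fell from 15380 and 15275 to 5208 and 3912. In glycolysis 10 of 22 genes fell and 1 rose; none rose under either other scaling, on H460 alone, without vehicle library 1 or without combination library 2, and 2 did without combination library 1. The glucose transporter SLC2A1 fell from 1545 and 1687 to 863 and 773, with changes of 1.18 in H1703, 0.11 in HCC827 and 0.25 in H441 (difference from the other lines -1.49, limma adjusted p = 1.04e-08). Tubulins fell in 9 of 13 cases and rose in none, TUBA1B from 22326 and 22090 to 7855 and 8215.

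Clock and FOXO-linked genes rose in part. Of 19 clock genes 9 rose and 1 fell, with 4 rising on H460 alone and 5 without combination library 2, and none falling on H460 alone, without either vehicle library or without any 1 of the combination libraries of H1703 and H441. NFIL3, a clock output repressor, rose 4.20-fold, from 80.2 and 71.6 normalised reads to 316 and 322. Of 14 FOXO, TXNIP and arrestin-domain genes 8 rose and none fell (4 rose on H460 alone). TSC22D3, the glucocorticoid-induced leucine zipper gene, went from 24.5 and 51.9 to 672 and 745. TXNIP, a glucose-responsive gene, was at 151 and 196 with vehicle and 61.2 and 155 with the combination (change -0.80, limma adjusted p = 0.147).

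Among genes with a symbol and a mean of at least 50 normalised reads over the H460 libraries, the largest falls were in the pseudogene PPIAP46 (357 reads with vehicle against 3 with the combination), CPLX2, a synaptic vesicle protein (from 1529 and 861 to 35.7 and 13.7 normalised reads), the histone gene H2BC14, given above, and HOPX, a homeodomain cofactor (from 552 and 588 to 55.1 and 61.6). A gene without a symbol that overlaps HOPX on the same strand fell from a mean of 41.3 to 0.57, by 4.23 on the log2 scale, and the reads of these overlapping genes cannot be told apart. PPIAP46 resembles PPIA closely, so its reads may belong to that gene, which was not tested. The change of PPIAP46 was 0.00 in H1703, 0.00 in HCC827 and 0.57 in H441. CPLX2 changed by -0.48, 0.95 and -1.24 in the other lines, and HOPX by 0.00, -1.79 and 0.26. The changes of 0.00 in PPIAP46 and HOPX are what a gene with no read in either group gives, and such a gene cannot fall. Of 24 neuronal and synaptic genes, CPLX2 among them, 6 rose and 3 fell (1 fell with a stricter filter on low values). Among all genes tested 14.1% were higher and 12.6% lower. NCAM1 rose 6.33-fold and NEFH fell from 42.1 and 35.4 to 0 and 1.14.

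H1703 had 8500 calls of its own, HCC827 2378 and H441 1110, and the numbers shared with H460 follow that order. Of the 3370 genes higher in H460, 1552 were higher in H1703 (46.1% of the H460 genes and 36.2% of the H1703 genes), and of the 3028 lower genes 1924 were lower there (63.5% and 45.6%). Opposite calls in H1703 numbered 406 and 177. In HCC827 542 of the higher genes were shared (16.1% of the H460 genes and 51.1% of the HCC827 genes) and 729 of the lower (24.1% and 55.3%). In H441 the numbers were 369 (10.9% and 55.5%) and 174 (5.75% and 39.1%). All 3 other lines shared 121 higher and 92 lower genes. Another 1137 higher and 790 lower genes were called in neither direction in any other line, which does not by itself show a difference. The difference was tested gene by gene: the H460 response differed from the mean of the other lines in 3908 genes (16.3% of those tested), 2144 above it and 1764 below. With median centring the split was 1575 above and 2365 below. Of the 3908 genes 3152 were also called within H460, with 1714 higher genes above the mean and 1405 lower genes below it.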

How the data were processed

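RNA was made into libraries with a stranded total RNA kit, per the labels' protocols. Reads were handled with Trimmomatic, STAR and featureCounts on GRCh38, per the submitters' processing notes; the sources used here give neither their versions nor the strand setting of the counting. The authors deposited 1 table of variance-stabilised counts on the log2 scale, with 28951 genes in 16 libraries and no value below 0.481, which stands for a count of 0. Undoing the transformation gave values that were whole within 0.02 after scaling for 100% of entries; these are the reads given, and reads divided by the library's size factor are the normalised reads. Gene symbols came from GENCODE 29 and the reference gene tables, and promoter windows from RefSeq.

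Genes with a mean at least 1 above the value of a count of 0 were tested (23968, with 4983 removed). 1 model of the 8 group means over all libraries was fitted to the deposited values with limma 3.58.1 in R 4.3.3, with trended and robust variance, and p-values were adjusted by Benjamini-Hochberg over all genes tested. The tests were H460 combination minus vehicle, and that response minus the mean response of the other lines. Fold changes are ratios of mean normalised reads; log2 changes are on the deposited scale and understate those of low genes. Counting intervals are exact at 95% and cover counting error only. The fit was tested on simulated data with known changes.

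The gene lists were chosen with earlier results of these data known, and so were the members. Genes named were the 15 largest rises and 15 largest falls with at least 50 normalised reads and no overlap between groups. By the same filter, up to 4 called members of each list were named, and the 6 largest differences from the other lines each way. The class IIa deacetylases, MYC and MAX were named without that filter. Other names were chosen after their values were seen, and some genes that the rule named are not reported here. Alternatives were median centring, quantile normalisation, other filters, plain variance, voom on the recovered reads, a replicate block, H460 alone, and each library left out; leaving out libraries of the other lines was added after seeing the data.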

Additional observations from a re-analysis of the deposited data

Results flagged for a closer look

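The H460 response differed from the mean response of the other 3 lines in 3908 genes by the test of that difference (limma, adjusted p at most 0.05). Among genes called both there and in H460, with H460 the line of largest change, the 6 largest positive differences on the log2 scale were in MMP1 (5.78), ESM1 (5.76), SCUBE1 (5.09), IL1RL1 (5.08), DKK1 (4.94) and GNGT1 (4.85). SCUBE1, a secreted and membrane-tethered protein, went from 32.3 and 44.8 normalised reads to 811 and 1315 in H460 and changed by -0.69, -0.60 and 0.00 in H1703, HCC827 and H441. DKK1, a secreted WNT inhibitor, went from 8.8 and 9.44 to 153 and 367, against changes of -0.98, -1.15 and 0.37; an antisense gene overlapping it rose as well. GNGT1 overlaps TFPI2 on the other strand, and the difference for TFPI2 was 4.82.

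The 6 largest negative differences were in PPIAP46 (-5.92), CPLX2 (-5.26), RASAL1 (-2.98), HOPX (-2.72), GPR22 (-2.56) and ANKLE1 (-2.46). PPIAP46, RASAL1 and HOPX had changes of 0.00 in H1703, and so had PPIAP46 in HCC827. Such a value arises where neither group has a read. A gene without reads cannot fall, so the difference from such a line cannot show a different response there. RASAL1, a RAS GTPase-activating protein, went from 118 and 103 normalised reads to 19.4 and 13.7. GPR22 lies within COG5 on the other strand, and went from 149 and 132 to 28.6 and 22.8 while COG5 rose by 0.87. ANKLE1, a nuclease, went from 133 and 142 to 41.8 and 47.9; without vehicle library 2 its change within H460 was -1.52 and no longer called (adjusted p = 0.0524).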

How the results depend on the processing

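Fitted on the 4 H460 libraries alone, 3626 genes were called in H460 instead of 6398; that fit has 2 residual degrees of freedom. Leaving out 1 H460 library gave 4886 to 5667 calls, and leaving out 1 library of another line 6169 to 6392; the lone library left in its group was assumed to vary like the other groups. The other settings gave 5439 (plain variance) to 7021 (voom). The difference from the other lines had 2747 to 4095 calls under every alternative run, against 3908. Same-numbered libraries deviated together at r = 0.032 in H460. That value covers all genes tested, low ones included, so it does not settle whether the numbers pair the libraries. With the replicate block 6635 genes were called in H460 and 4095 in the difference. Of 226 named genes, 38 lost their call under at least 1 alternative, 26 of them or fewer under any 1 setting, and the cause was not tested. Signs turned in MYC without vehicle library 1 (0.00769; range over H460 libraries left out -0.127 to 0.00769), in HDAC7 with median centring (-0.0431), and in MAX with median centring (-0.183), without vehicle library 2 (-0.0796) and without combination library 2 (-0.0265; range -0.0796 to 0.102); none of these 3 genes was called.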
